A study of Mus musculus with 8 samples.

Results

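The 39 genes described here make up the machinery by which cells show peptides to T cells. They are the heavy chains of class I major histocompatibility complex (MHC) molecules and the genes that supply them with peptide, the class II chains with their peptide exchange factors, the shared RFX factors, and a small set of related genes. They were chosen by name, and every probe set that the platform annotation gave to exactly 1 of these genes was used, which came to 68 of the 45141 probe sets on the array and covered 35 genes. H2-Q7, B2m, Tap1 and Tap2 had no probe set under this rule and are not analysed here. After a filter on low values 33 of the 39 genes were tested, with 18 of 22 in the class I part and 9 of 11 in the class II part, and H2-Aa and Ciita lay below the filter.

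Class I molecules sit on nearly all cells and carry peptides made by the proteasome in the cytosol, which are pumped into the endoplasmic reticulum, trimmed and loaded there. Class II molecules are made mainly by dendritic cells, B cells and activated macrophages and carry peptides cut in endosomes. There the invariant chain first fills the groove, H2-DM exchanges its remnant for other peptides, and H2-O holds H2-DM in check. Nlrc5 drives class I genes and Ciita drives class II genes, both through a DNA-bound complex that contains the RFX factors.

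The study used arrays on mouse myeloid cells in culture. Bone marrow from C57BL/6 animals with Cre-ERT2 knocked into Rosa26 had been transformed by retroviruses for Hoxa9, a homeobox factor, and for a floxed Meis1, its homeobox partner, and was kept in interleukin-3. The Meis1 deleted group (4 arrays) had received 2 µM 4-hydroxytamoxifen, so that Cre removed the Meis1 cDNA, and the Hoxa9 and Meis1 group (4 arrays) had not. Both groups carry Cre-ERT2 and the Hoxa9 virus but differ in exposure to the drug, so that loss of Meis1, the drug itself and Cre activity cannot be told apart. No label says whether the samples were separate cultures or whether the line is 1 clone, and each p-value therefore reflects the spread among these arrays, which may be technical. Levels are the deposited log2 values, and every log2 fold change is Meis1 deleted minus Hoxa9 and Meis1, with the standard error of limma's fit. A gene was called changed at a Benjamini-Hochberg adjusted p under 0.05 over all 11836 genes tested.

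Among the arrays, Meis1 deleted replicate 1 stood apart. Its Gapdh control read 0.72 higher at the 3′ than at the 5′ end on the log2 scale, against -0.07 to 0.04 on the other arrays. The arrays also fell into 2 sets by the level of the spiked bioB control, each with samples of both groups: set 1 held Meis1 deleted replicates 1, 2 and 3 with Hoxa9 and Meis1 replicates 1 and 2, and set 2 held the other 3 arrays. The sets come from that control and are not a labelled batch. Myeloid markers (Ptprc, Itgam, Mpo, Elane, Ctsg and Prtn3) were all above the filter threshold of 4.29. The level of Meis1 itself was 5.02 ± 0.07 in Meis1 deleted cells, beside 5.00 ± 0.05 in Hoxa9 and Meis1 cells (means with SD over 4 arrays, as throughout). That of Hoxa9 was 9.74 ± 0.53 in Meis1 deleted cells, beside 10.08 ± 0.17 in Hoxa9 and Meis1 cells. Neither passed the test (adjusted p = 0.744 and 0.266), and as no source used here says whether these probe sets read the viral transcripts, they check no label. The deletion was checked by genomic PCR, per the labels' protocols.

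The class I and class II genes gave different counts. In all, 23 of the 33 genes tested changed, 17 of them rising and 6 falling, beside 37.8% changed among all genes tested. Of the 18 class I genes tested, 13 rose and 0 fell, against a background in which 19.1% of all genes tested rose and 18.7% fell. At an unadjusted p under 0.05 the limma fit also gave no class I gene that was lower. Of the 9 class II genes tested, 5 fell and 1 rose. The same numbers had groups that did not overlap, 13 class I genes with every Meis1 deleted array higher and 5 class II genes with every one lower, beside 19.7% and 18.9% of all genes tested. One of the class I rises, that of H2-T24, belongs to a gene that passed the filter only through its level in Meis1 deleted cells, and without it 12 of 17 class I genes rose, with a median of 0.29. With all genes tested the median log2 fold change was 0.30 over the class I genes and -0.36 over the class II genes, beside -0.0044 over all genes tested. The counts were 13 and 0 for class I and 5 and 1 for class II without Meis1 deleted replicate 1 as well. As the RNA came from whole cultures, a larger share of cells with a transcript and more of it in each cell cannot be told apart.

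Markers of other and of more mature cells moved beside these counts. The macrophage markers (Mrc1, Adgre1, Csf1r, Fcgr1, Mertk, Msr1 and Cd68) all rose, 7 of 7, and their summed linear level was 7353 to 7621 in Meis1 deleted cells and 2358 to 2524 in Hoxa9 and Meis1 cells. The late neutrophil markers (Ltf, Camp, Ngp and Mmp8) rose as well, 4 of 4, with sums of 9187 to 9935 in Meis1 deleted cells and 3695 to 3966 in Hoxa9 and Meis1 cells. Their part in the class I and class II results was not tested. Of the 4 dendritic cell markers tested, Flt3 (-0.80) and Batf3 (-0.15) fell, and Itgax (0.08) and Cd209a (-0.04) did not pass. The sum over the 6 with a probe set was 130.4 to 142 in Meis1 deleted cells and 153 to 166 in Hoxa9 and Meis1 cells. Flt3 moved most and held the largest share of that sum. It read 4.98 ± 0.16 in Meis1 deleted cells and 5.78 ± 0.12 in Hoxa9 and Meis1 cells. Whether the fall of Flt3 reflects dendritic cells was not tested. Zbtb46 and Xcr1 lay below the filter, and their groups overlapped. Of the B cell markers Cd79b and Pax5 lay below the filter and Cd79a and Ms4a1 did not pass, with sums of 71.0 to 82.7 in Meis1 deleted cells and 80.9 to 85.1 in Hoxa9 and Meis1 cells. Of the T cell markers Cd3g and Cd8a lay below the filter and Cd3e, Cd4 and Cd3d did not pass, with sums of 149.9 to 159 in Meis1 deleted cells and 143 to 152 in Hoxa9 and Meis1 cells.

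Promoters of 3 class I heavy chains and of 3 peptide exchange genes of class II, chosen from the windows at hand to show both parts, are given first, because the class I and class II genes share a promoter layout that the regulators above read. The sequences are RefSeq windows of 300 bases, from 250 before to 50 after the transcript start, on GRCm38.p6. A window was at hand for 29 of the 39 genes, not for H2-T24, Tap2, Tapbpl, Nlrc5, H2-Ab1, Cd74, Ciita, Rfxap, Cd1d1 and Cd86. Capitals mark 3 kinds of match, searched on both strands. They are an interferon response core (GAAA, any 2 bases and GAAA again, or the shorter GAANNGAAA, a spelling added after the other had been searched), the X1 box bound by RFX factors (CCTAGNNAC) and the Y box bound by NF-Y (CTGATTGG). No match overlapped another in the windows printed. The 3 class I genes come from H2-K1 (chr17:34000298-34000597, minus strand), H2-D1 (chr17:35262844-35263143, plus strand) and H2-T23 (chr17:36032652-36032951, minus strand).
H2-K1: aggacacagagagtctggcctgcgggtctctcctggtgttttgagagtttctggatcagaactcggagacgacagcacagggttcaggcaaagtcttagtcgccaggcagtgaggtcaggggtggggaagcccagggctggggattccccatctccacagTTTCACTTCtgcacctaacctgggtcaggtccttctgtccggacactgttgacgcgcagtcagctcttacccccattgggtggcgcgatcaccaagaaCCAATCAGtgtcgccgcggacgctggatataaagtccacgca
H2-D1: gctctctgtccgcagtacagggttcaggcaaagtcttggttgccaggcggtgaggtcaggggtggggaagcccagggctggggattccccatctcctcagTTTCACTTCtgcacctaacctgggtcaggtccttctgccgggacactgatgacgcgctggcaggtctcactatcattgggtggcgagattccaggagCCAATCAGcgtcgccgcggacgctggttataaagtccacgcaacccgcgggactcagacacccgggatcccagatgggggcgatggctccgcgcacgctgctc
H2-T23: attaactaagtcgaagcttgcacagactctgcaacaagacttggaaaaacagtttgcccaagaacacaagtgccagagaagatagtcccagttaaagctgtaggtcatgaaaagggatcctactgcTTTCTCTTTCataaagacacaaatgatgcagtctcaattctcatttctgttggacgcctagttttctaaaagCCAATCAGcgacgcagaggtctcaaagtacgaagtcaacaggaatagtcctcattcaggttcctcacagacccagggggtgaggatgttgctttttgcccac

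The class II genes shown are some of the exchange factors that fell, H2-Oa (chr17:34092129-34092428, plus strand), H2-Ob (chr17:34238655-34238954, plus strand) and H2-DMb1 (chr17:34152941-34153240, plus strand). H2-DMa and H2-DMb2 fell too, but their windows held no match of any kind and are not printed.
H2-Oa: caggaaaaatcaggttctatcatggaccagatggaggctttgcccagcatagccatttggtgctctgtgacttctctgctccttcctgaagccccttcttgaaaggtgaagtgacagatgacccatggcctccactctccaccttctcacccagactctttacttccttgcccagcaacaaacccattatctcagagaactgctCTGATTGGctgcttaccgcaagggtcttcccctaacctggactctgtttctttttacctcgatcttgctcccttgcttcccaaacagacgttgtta
H2-Ob: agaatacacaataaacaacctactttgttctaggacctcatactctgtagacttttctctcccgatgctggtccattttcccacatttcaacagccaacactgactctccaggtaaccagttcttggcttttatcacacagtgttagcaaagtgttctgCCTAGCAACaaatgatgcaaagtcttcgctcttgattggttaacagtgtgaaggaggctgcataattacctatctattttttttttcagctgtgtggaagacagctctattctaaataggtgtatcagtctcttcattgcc
H2-DMb1: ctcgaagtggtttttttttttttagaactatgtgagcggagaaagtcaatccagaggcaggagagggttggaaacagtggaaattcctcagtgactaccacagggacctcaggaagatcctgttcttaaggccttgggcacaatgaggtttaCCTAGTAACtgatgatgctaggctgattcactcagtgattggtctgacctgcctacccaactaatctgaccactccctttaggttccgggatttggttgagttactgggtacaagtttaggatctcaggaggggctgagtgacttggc

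In the 3 class I windows printed, an interferon response core lay upstream of a match to the Y box letters. That match read CCAATCAG, the spelling on the other strand. It began at 53 bases before the annotated start in H2-D1, at 52 before it in H2-T23 and at base 9 downstream of it in H2-K1. Whether it is the Y box of the shared promoter layout was not tested. H2-K1 and H2-D1 held the same core, TTTCACTTC, at 90 and 150 bases before the annotated start, and H2-T23 held TTTCTCTTTC at 124 bases before it. In the class II windows H2-Ob held an X1 box, CCTAGCAAC, at 91 bases and H2-DMb1 held CCTAGTAAC at 98 bases before the start, and H2-Oa held a Y box at 46 bases before it. Only exact spellings were marked and counted. The windows also hold spellings a single letter off, ttgattgg in H2-Ob and gtgattgg in H2-DMb1 for the Y box and cccagcaac in H2-Oa for the X1 box. Over the 29 genes with a window, the longer interferon core was found in 4, the shorter in 5, the X1 box in 2 and the Y box in 10. The windows of Psmb9 and Tap1 overlap and hold the same Y box site, which was counted for each of them. Over the 27025 genes of the promoter table the shares were 3.49%, 7.56%, 4.04% and 4.31%. These are matches of letters and show no binding.

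The class I heavy chains, which form the peptide groove, rose in all 4 tested genes that were above the filter in both groups, and H2-T24, above it in Meis1 deleted cells alone, was higher there too. H2-K1 and H2-D1 are the classical, polymorphic class I genes of this strain. H2-K1 had 12.27, 12.38, 12.41 and 12.39 in Meis1 deleted cells, against 12.08, 12.10, 12.09 and 12.05 in Hoxa9 and Meis1 cells (log2 fold change 0.28 ± 0.04, adjusted p = 0.000753). H2-D1 had 12.04, 12.12, 12.08 and 12.05 in Meis1 deleted cells, against 11.71, 11.68, 11.58 and 11.55 in Hoxa9 and Meis1 cells (0.44 ± 0.05, adjusted p = 6.32e-05). For both genes each deleted array was above each array with Meis1, at levels near the top of the scale. The other 3 H2-K1 probe sets were higher as well, by 0.24, 0.28 and 0.56, and passed, although the groups overlapped in the first of these. All 4 probe sets of H2-K1 and 4 of 5 of H2-D1 carry the suffix by which Affymetrix marks probes shared with other sequences, so the class I genes may read each other's transcripts here. The other 3 kept probe sets of H2-D1, at means between 4.85 and 5.52, gave -0.13, 0.19 and 0.11 and did not pass, and with the mean of its probe sets H2-D1 was no longer called (0.15, adjusted p = 0.0656).

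The non-classical heavy chains were higher as well. H2-T23 encodes Qa-1, which shows leader peptides of other class I chains to natural killer cells. It had 10.87, 10.96, 10.95 and 10.97 in Meis1 deleted cells, against 10.44, 10.43, 10.42 and 10.48 in Hoxa9 and Meis1 cells (0.49 ± 0.04, adjusted p = 7.64e-06), with narrow groups that did not overlap. Its second probe set, near 6.5, did not pass (-0.05 ± 0.10 in the fit of each probe set alone), and the mean of both gave 0.22. H2-M3, which presents formylated bacterial peptides, had 9.34, 9.41, 9.40 and 9.46 in Meis1 deleted cells, against 8.96, 9.05, 9.11 and 9.11 in Hoxa9 and Meis1 cells (0.34 ± 0.05, adjusted p = 0.000407). H2-T24, a further gene of the T region, had 5.16, 5.70, 5.92 and 5.61 in Meis1 deleted cells, against 4.06, 4.22, 4.03 and 3.84 in Hoxa9 and Meis1 cells. The groups did not overlap, with a difference of 1.56. Its level with Meis1 lay below the filter threshold of 4.29, so it was tested only because it was higher after the deletion, and its difference, given here as a description, was 0.49 with an offset of 64.

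Among other class I and class I-like chains, a further list, 2 of 8 genes tested rose and 1 fell, with a median of 0.10. Over all genes tested 19.1% rose and 18.7% fell, shares close to these counts. H2-T10 rose by 0.86 ± 0.05 (9.81 ± 0.09 in Meis1 deleted cells and 8.94 ± 0.06 in Hoxa9 and Meis1 cells). Its probe set carries the suffix that Affymetrix gives to probes that read several transcripts, so the rise may not belong to H2-T10 alone. Hfe, a class I-like protein that senses iron, rose by 1.51 ± 0.08. Fcgrt, the class I-like receptor that protects immunoglobulin G from breakdown, fell by 0.46. H2-Q10 read -0.14 ± 0.05 and did not pass (adjusted p = 0.0591).

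**Figure D1:**
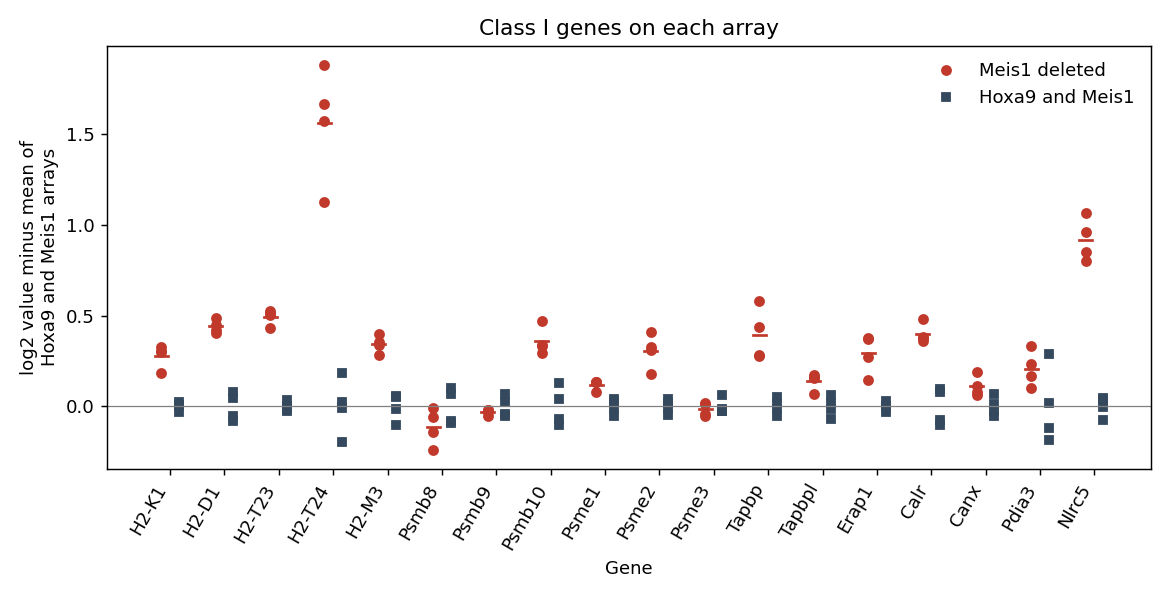
Each point is 1 array: the log2 value of a class I gene minus the mean of the 4 Hoxa9 and Meis1 arrays, with Meis1 deleted arrays as circles (their mean as a bar) and Hoxa9 and Meis1 arrays as squares. H2-T24 (1.56) and Nlrc5 (0.92) stand highest, most other genes lie between 0.1 and 0.5, and Psmb8, Psmb9 and Psme3 lie at or below 0.

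Nlrc5, the transactivator of class I genes, rose with them. It had 8.92, 8.82, 8.71 and 8.66 in Meis1 deleted cells, against 7.78, 7.85, 7.89 and 7.90 in Hoxa9 and Meis1 cells (0.92 ± 0.06, or 1.89-fold, adjusted p = 1.74e-06). The gap between the lowest deleted array and the highest array with Meis1 was wider than the range of either group. Without each array in turn the log2 fold change stayed between 0.87 and 0.96.

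Peptide supply rose in part. The immunoproteasome swaps 3 catalytic subunits of the proteasome for Psmb8, Psmb9 and Psmb10, and the activator cap is built from Psme1 and Psme2. Of the 6 genes of this group 3 rose and 0 fell, beside 19.1% and 18.7% of all genes tested. Psmb10 had 10.28, 10.33, 10.33 and 10.46 in Meis1 deleted cells, against 9.92, 9.89, 10.03 and 10.12 in Hoxa9 and Meis1 cells (0.36 ± 0.06, adjusted p = 0.00126). Psme2 had 10.57, 10.71, 10.79 and 10.69 in Meis1 deleted cells, against 10.33, 10.37, 10.40 and 10.43 in Hoxa9 and Meis1 cells (0.31 ± 0.05, adjusted p = 0.00135). In both genes the groups did not overlap. Psme1 passed narrowly (0.12 ± 0.04, adjusted p = 0.0410), and it lost the call under 11 of 21 alternatives, its adjusted p reaching 0.239. Psme3, whose product caps nuclear proteasomes and is not tied to class I, did not pass (-0.01 ± 0.04).

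Psmb8 and Psmb9, the subunits encoded inside the MHC, did not pass. Psmb8 had 11.28, 11.37, 11.46 and 11.51 in Meis1 deleted cells, against 11.44, 11.42, 11.62 and 11.58 in Hoxa9 and Meis1 cells, with overlapping groups (-0.11 ± 0.07, adjusted p = 0.219). The brightest Psmb9 probe set had 10.45, 10.48, 10.48 and 10.47 in Meis1 deleted cells, against 10.45, 10.46, 10.57 and 10.53 in Hoxa9 and Meis1 cells (-0.03 ± 0.04, adjusted p = 0.621). A dimmer Psmb9 probe set disagreed with it. That probe set had 9.24, 9.21, 9.09 and 9.17 in Meis1 deleted cells, against 8.86, 8.73, 8.71 and 8.86 in Hoxa9 and Meis1 cells, and it passed in the fit of each probe set alone (0.39 ± 0.05, adjusted p = 0.000573). With the mean of both kept probe sets Psmb9 was called higher (0.18, adjusted p = 0.00526), so its direction depends on the probe set. Of 14 genes for the standard 20S core 1 passed, beside 37.8% of all genes tested, with a median of 0.04 over the list. It was Psmb6, a catalytic subunit that Psmb9 replaces, which rose by 0.29 ± 0.05. Psmb5, which Psmb8 replaces, read 0.07 ± 0.05, and Psmb7, which Psmb10 replaces, read -0.01 ± 0.16. The structural subunits Psmb3 (0.14), Psma6 (0.09) and Psmb2 (0.07) missed the threshold too.

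Loading of peptide takes place in the endoplasmic reticulum around the peptide transporter. Of the 6 genes tested in this group 4 rose and 0 fell, beside 19.1% and 18.7% of all genes tested. Tapbp, or tapasin, which tethers empty class I molecules to the transporter, had 10.31, 10.17, 10.01 and 10.02 in Meis1 deleted cells, against 9.75, 9.78, 9.68 and 9.72 in Hoxa9 and Meis1 cells (0.39 ± 0.07, adjusted p = 0.00137). Calr, the lectin chaperone calreticulin, had 11.91, 11.82, 11.81 and 11.80 in Meis1 deleted cells, against 11.51, 11.53, 11.36 and 11.33 in Hoxa9 and Meis1 cells (0.40 ± 0.06, adjusted p = 0.000380), and its second probe set gave 0.47. Erap1, which trims peptides to length, had 8.50, 8.39, 8.49 and 8.27 in Meis1 deleted cells, against 8.12, 8.15, 8.09 and 8.13 in Hoxa9 and Meis1 cells (0.29 ± 0.06, adjusted p = 0.00240). None of these 3 overlapped between groups. Tapbpl, a tapasin relative that edits peptides, passed narrowly (0.14 ± 0.05, adjusted p = 0.0361) and lost the call under 11 of 21 alternatives, its adjusted p reaching 0.210. Tapbp lost it with the mean of its probe sets (0.15, adjusted p = 0.154), because a dim probe set read -0.09, with 5.14 on Meis1 deleted replicate 1 and 6.02 to 6.15 on the other deleted arrays. Canx (0.11 ± 0.05, adjusted p = 0.0897) and Pdia3 (0.21 ± 0.10, adjusted p = 0.127), chaperones that serve many glycoproteins, did not pass.

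In the class II part, the chains that form the peptide groove read low in both groups. They lay below 6.42, the median over probe sets above the filter. H2-Aa, the alpha chain of I-A, was below the filter in all 3 probe sets, the brightest at 3.97 ± 0.07 in Meis1 deleted cells and 3.93 ± 0.03 in Hoxa9 and Meis1 cells. H2-Ab1, its beta chain, read 4.46 ± 0.08 in Meis1 deleted cells and 4.55 ± 0.05 in Hoxa9 and Meis1 cells (-0.08 ± 0.05, adjusted p = 0.262). A second H2-Ab1 probe set did not pass in the fit of each probe set alone (-0.18 ± 0.09, adjusted p = 0.148). Another, below the filter and not tested, read 3.68 ± 0.10 in Meis1 deleted cells and 3.92 ± 0.05 in Hoxa9 and Meis1 cells. Its groups did not overlap. H2-Eb1, the beta chain of I-E, read 5.17 ± 0.02 in Meis1 deleted cells and 5.16 ± 0.12 in Hoxa9 and Meis1 cells (0.01 ± 0.06, adjusted p = 0.945). Ciita, the class II transactivator, was below the filter in all 3 probe sets as well, the brightest at 4.23 ± 0.03 in Meis1 deleted cells and 4.20 ± 0.09 in Hoxa9 and Meis1 cells. No detection calls were at hand, so these levels can only be called low on the scale of the deposited values.

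Cd74, the invariant chain, was the 1 class II gene that rose. It had 6.38, 6.52, 6.61 and 6.61 in Meis1 deleted cells, against 5.87, 5.99, 6.01 and 5.99 in Hoxa9 and Meis1 cells (0.57 ± 0.06, adjusted p = 5.10e-05). The groups did not overlap, and in both the level was near 6.42, the median over probe sets above the filter. With an offset of 64 its log2 fold change was 0.31.

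The genes of peptide exchange fell in 5 of 6 cases, and the other one, Ifi30, read below 0 without passing. Over all genes tested 18.7% fell. H2-Oa and H2-Ob, the chains of the inhibitor H2-O, which is best known from B cells and the thymus, fell most. H2-Oa had 6.81, 6.56, 6.65 and 6.63 in Meis1 deleted cells, against 7.75, 7.78, 7.89 and 7.94 in Hoxa9 and Meis1 cells (-1.18 ± 0.06, to 0.442 of the level with Meis1, adjusted p = 3.47e-07). The brighter H2-Ob probe set had 7.40, 7.04, 6.94 and 7.10 in Meis1 deleted cells, against 8.95, 8.95, 8.83 and 8.92 in Hoxa9 and Meis1 cells (-1.79 ± 0.09, to 0.289 of the level, adjusted p = 1.59e-07). Each deleted array was more than a whole log2 unit below each array with Meis1 in this probe set. A second H2-Ob probe set had 5.74, 6.05, 6.02 and 6.15 in Meis1 deleted cells, against 6.84, 7.01, 7.11 and 7.05 in Hoxa9 and Meis1 cells (-1.01 ± 0.09 in the fit of each probe set alone). Falls of at least 2-fold that passed the test were few in the whole series, 0.676% of the genes tested, and both H2-O chains were among them. Both kept their call under every alternative, with log2 fold changes from -1.28 to -0.83 for H2-Oa and from -1.88 to -1.40 for H2-Ob.

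The chains of H2-DM, which catalyses the exchange, fell by less. H2-DMa had 8.37, 8.30, 8.47 and 8.47 in Meis1 deleted cells, against 8.71, 8.72, 8.79 and 8.89 in Hoxa9 and Meis1 cells (-0.38 ± 0.06, adjusted p = 0.000652). H2-DMb1 had 7.25, 7.42, 7.51 and 7.51 in Meis1 deleted cells, against 7.79, 7.76, 7.75 and 7.84 in Hoxa9 and Meis1 cells (-0.36 ± 0.06, adjusted p = 0.00119). H2-DMb2, the close copy of H2-DMb1, had 7.16, 7.94, 7.86 and 7.80 in Meis1 deleted cells, against 8.18, 8.19, 8.14 and 8.16 in Hoxa9 and Meis1 cells (-0.48 ± 0.14, adjusted p = 0.0258). The groups did not overlap for any of the 3 genes, and the low H2-DMb2 value belongs to Meis1 deleted replicate 1. Without that array H2-DMb2 read -0.30 (adjusted p = 0.000515). With the bioB array set as a block it read -0.47 (adjusted p = 0.0510), and without a single array of the Hoxa9 and Meis1 group its adjusted p was between 0.0524 and 0.0574. Within bioB set 1 alone it read -0.53 (adjusted p = 0.172). H2-DMa lost its call with the mean of its probe sets (-0.10, adjusted p = 0.231), since a dimmer one read 0.19 ± 0.10. The brighter H2-DMb2 probe set carries the suffix that Affymetrix gives to probes that read several transcripts, and with a close copy at hand the values of both H2-DMb genes are uncertain. A second H2-DMb2 probe set, without that suffix, read 4.63 ± 0.24 in Meis1 deleted cells and 4.93 ± 0.05 in Hoxa9 and Meis1 cells. Its groups did not overlap, but it did not pass in the fit of each probe set alone (-0.29 ± 0.10, adjusted p = 0.0574). Ifi30, a thiol reductase that unfolds proteins in endosomes, did not pass (-0.11 ± 0.05, adjusted p = 0.0877).

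**Figure D2:**
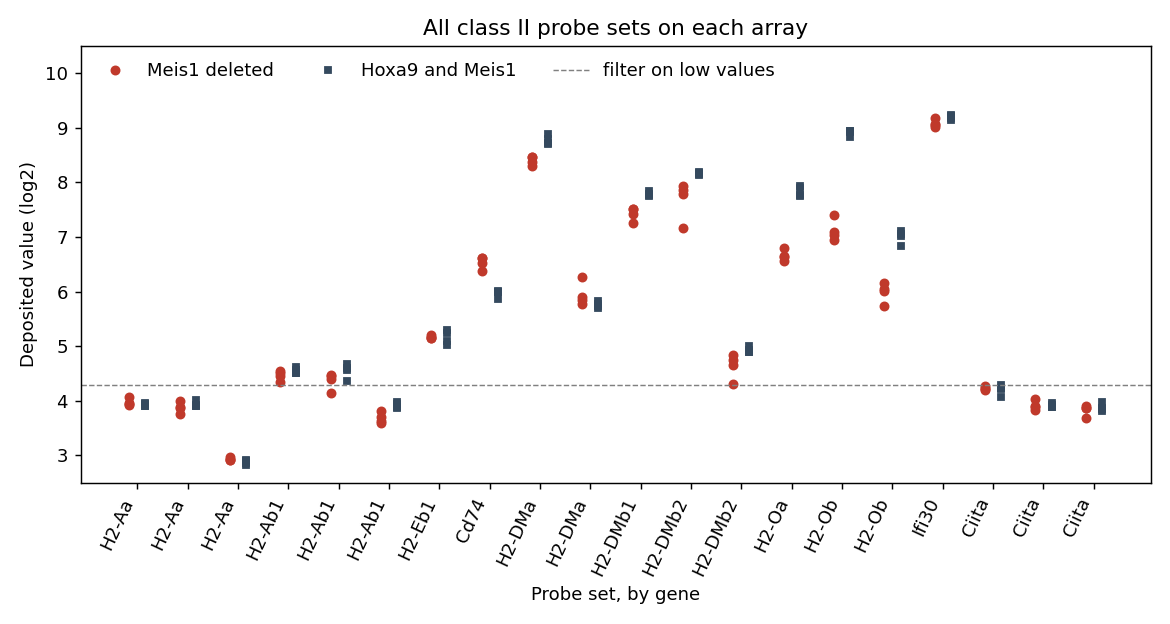
The deposited log2 value on each array is shown for all 20 class II probe sets, named by gene, with Meis1 deleted arrays as circles left of the Hoxa9 and Meis1 arrays as squares and the filter threshold of 4.29 as a dashed line. H2-Aa and Ciita lie below the line in both groups, and both H2-Ob probe sets and the H2-Oa probe set lie lower in Meis1 deleted cells with no overlap.

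Genes that act beside the class II molecules in endosomes, a further list, all went the other way. Of these, 8 of 8 rose, with a median of 1.35, beside 19.1% of all genes tested. Lgmn, a protease that starts the breakdown of the invariant chain, read 10.30 ± 0.09 in Meis1 deleted cells and 5.01 ± 0.18 in Hoxa9 and Meis1 cells. Ctss, the protease that finishes it in dendritic cells and macrophages, rose by 1.24 ± 0.04 to 12.42 ± 0.04 in Meis1 deleted cells, against 11.19 ± 0.03 in Hoxa9 and Meis1 cells. Ctsb rose by 1.96 ± 0.04 and Ctsl by 1.37 ± 0.04. Marchf1, a ubiquitin ligase that removes class II molecules and Cd86 from the surface, rose by 2.03 ± 0.07, and Marchf8, its relative, by 0.36 ± 0.12.

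**Figure D3:**
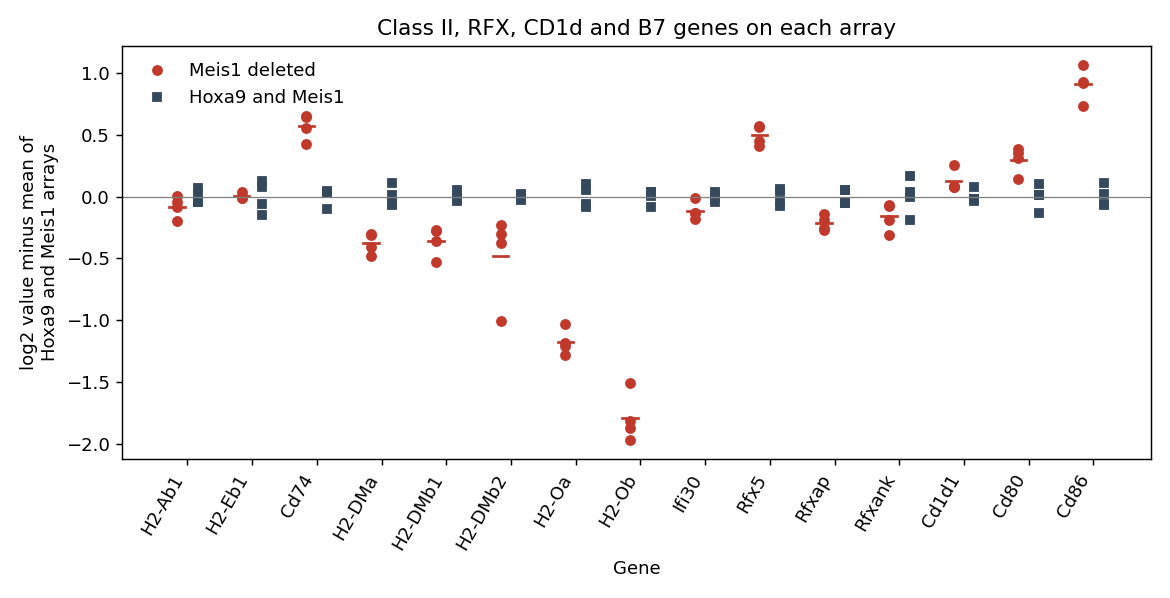
Each point is 1 array: the log2 value of a tested class II, RFX, CD1d or B7 gene minus the mean of the 4 Hoxa9 and Meis1 arrays, with Meis1 deleted arrays as circles (their mean as a bar) and Hoxa9 and Meis1 arrays as squares. H2-Oa (-1.18) and H2-Ob (-1.79) lie lowest, H2-DMb2 has 1 deleted array far below the other 3, and Cd74, Rfx5, Cd80 and Cd86 lie above 0.

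Along chromosome 17, which holds 19 of the 39 genes, the direction changed between neighbours. In the order of the RefSeq annotation, H2-Oa is followed by Brd2, H2-DMa, H2-DMb2, H2-DMb1, Psmb9, Tap1, Psmb8, Tap2 and H2-Ob, 10 genes in all. The H2-O and H2-DM genes in this stretch fell. Psmb9 (-0.03 ± 0.04) and Psmb8 (-0.11 ± 0.07), which lie between them, did not pass by their brightest probe sets. The class I genes on either side, Tapbp and H2-K1 before and H2-D1, H2-T23 and H2-M3 after, rose. H2-T24, which also lies after, was higher too, but it passed the filter only through its level in Meis1 deleted cells.

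**Figure D4:**
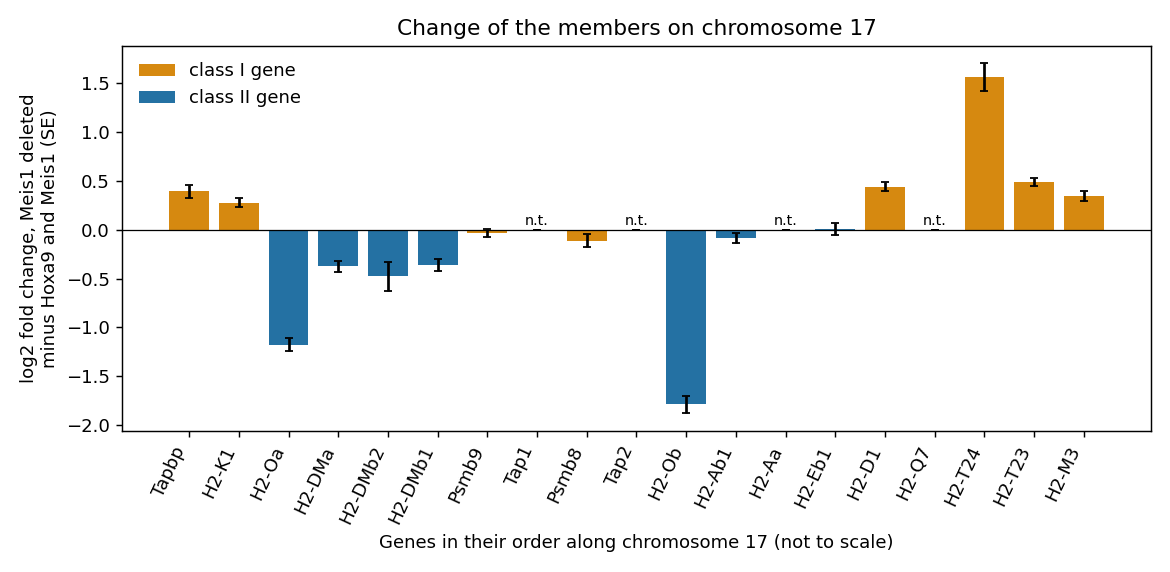
Bars give the log2 fold change, Meis1 deleted minus Hoxa9 and Meis1, with its SE for the 19 genes on chromosome 17, in their annotated order and not to scale; n.t. marks genes not tested. Class I genes at both ends are above 0, and the class II exchange genes between them are below 0, with H2-Ob lowest at -1.79. H2-T24 passed the filter only through its level in Meis1 deleted cells.

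The RFX complex, which both transactivators need, split. Rfx5, its DNA-binding subunit, had 7.88, 7.89, 7.72 and 7.76 in Meis1 deleted cells, against 7.38, 7.36, 7.24 and 7.28 in Hoxa9 and Meis1 cells (0.50 ± 0.05, adjusted p = 5.80e-05). Rfxap, a partner subunit, had 7.69, 7.60, 7.62 and 7.74 in Meis1 deleted cells, against 7.82, 7.83, 7.93 and 7.93 in Hoxa9 and Meis1 cells (-0.21 ± 0.05, adjusted p = 0.00666). The groups did not overlap in either gene. Rfxap was not called within the bioB array sets, where it read -0.19 in both (adjusted p = 0.0652 and 0.0740). Rfxank, the third subunit, did not pass (-0.16 ± 0.08, adjusted p = 0.150).

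Of 11 further factors that act at interferon or MHC promoters, 5 rose and 3 fell, with a median of 0.02. Over all genes tested 19.1% rose and 18.7% fell. Irf9 (1.58 ± 0.11) and Stat2 (1.40 ± 0.10), parts of the complex that carries the type I interferon signal to DNA, rose most. Irf1, an activator of class I genes and of Nlrc5, read 8.61 ± 0.06 in Meis1 deleted cells and 8.03 ± 0.05 in Hoxa9 and Meis1 cells (0.58 ± 0.05). Rfx1, which is not part of the RFX complex, fell by 0.55. Nfya (-0.20 ± 0.06, adjusted p = 0.0274) and Nfyc (-0.15 ± 0.05, adjusted p = 0.0482), subunits of NF-Y, fell as well. The Nfyc groups overlapped, and Nfyb, another subunit, did not pass (-0.30 ± 0.13, adjusted p = 0.0955).

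Cd86 and Cd80, the B7 ligands that give T cells their second signal through CD28, both rose. Cd86 had 6.17, 5.97, 6.31 and 6.16 in Meis1 deleted cells, against 5.26, 5.17, 5.35 and 5.18 in Hoxa9 and Meis1 cells (0.91 ± 0.07, adjusted p = 5.83e-06). Its second probe set had 5.78, 5.71, 5.73 and 5.60 in Meis1 deleted cells, against 4.26, 4.09, 4.10 and 4.21 in Hoxa9 and Meis1 cells. Its level with Meis1 lay below the filter threshold of 4.29, so this probe set was kept only because it was higher after the deletion, and its difference of 1.54 is given as a description. With an offset of 64 Cd86 read 0.41. Cd80 had 6.99, 7.03, 7.06 and 6.83 in Meis1 deleted cells, against 6.78, 6.70, 6.55 and 6.70 in Hoxa9 and Meis1 cells (0.30 ± 0.07, adjusted p = 0.00589). With an offset of 64 Cd80 read 0.19. Of the other 3 Cd80 probe sets 1 passed (0.72 ± 0.08), and the others read 0.14 and -0.11. Within bioB set 2, which holds 1 Meis1 deleted array and 2 of the other group, Cd80 was not called (0.20, adjusted p = 0.152), nor was Erap1 (0.16, adjusted p = 0.117).

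Other costimulators and checkpoint ligands gave 4 rises and 1 fall among 7 genes tested, with a median of 0.45. The shares over all genes tested were 19.1% and 18.7%. Cd274, or PD-L1, which restrains T cells, read 9.47 ± 0.07 in Meis1 deleted cells and 7.07 ± 0.10 in Hoxa9 and Meis1 cells (2.40 ± 0.06). Tnfsf9 (0.74 ± 0.09), Icam1 (0.53 ± 0.09) and Pdcd1lg2 (0.45 ± 0.05) rose, and Icosl fell by 0.20. Cd1d1, a class I-like protein that presents lipids, did not pass (0.12 ± 0.05, adjusted p = 0.0951), although its groups did not overlap in either probe set.

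Counted by probe set, 59 of the 68 passed the filter, of which 23 were higher and 8 lower, beside 16.1% higher and 17% lower among the 18749 named probe sets tested. Class I genes held 17 of the rises and 0 of the falls, and class II genes 1 and 6. The rises include the H2-T24 and the second Cd86 probe set, which were above the filter in Meis1 deleted cells alone.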

How the data were processed

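RNA from 8 samples was hybridised to 1-colour Affymetrix arrays. The authors deposited 1 log2 value for each probe set on each array; the scale was judged from the range of 2.65 to 13.2, and values were taken as normalized between arrays, since the medians lay at 4.69 to 4.74. The submitters' processing notes list MAS5 without saying what it was used for, and how probes were summarised is not stated in any source used here. GEO's annotation gave 1 symbol to 28898 of the 45037 non-control probe sets, several to 551 and none used here to 15588. Values were used with no offset. Probe sets in the lowest 40% by mean (under 4.29) were left out, and the brightest named probe set stood for its gene, which gave 11836 genes. Groups were compared with limma 3.58.1 in R 4.3.3 with Benjamini-Hochberg adjustment, and each of the 18749 kept named probe sets was also fitted alone. The procedure was tested on simulated data. Python 3.11.15 and matplotlib 3.10.9 drew the plots. All 39 genes are named, with up to 4 genes of smallest p from each further list, Meis1 and Hoxa9. Ctss, Marchf8, Psmb5, Psmb7, Icosl, Nfya, Nfyb and Nfyc were added after their values were seen, for their roles. The genes and lists were chosen with earlier results of these data known. The number of arrays limits the precision. Alternatives covered the offset, the normalization, the filter, the probe sets per gene, the variance model, array weights, blocks and leaving out arrays.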

Additional observations from a re-analysis of the deposited data

Results flagged for a closer look

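Of 66 groups of 4 arrays, those of the 33 tested genes, 6 held an array whose gap to its nearest neighbour was above Dixon's critical share of 0.829 of the group's range; chance alone gives about 1 group in 20. Psme1 read 10.81 on Meis1 deleted replicate 4 and 10.86 to 10.87 on the other deleted arrays. Tapbpl read 7.65 on Meis1 deleted replicate 2 and 7.74 to 7.75 on the others. Cd1d1 read 9.51 on Meis1 deleted replicate 1 and 9.33 to 9.34 on the others. In the Hoxa9 and Meis1 group replicate 1 was the array apart for Cd1d1 (9.33, others 9.22 to 9.24), for Psme3 (8.43, others 8.35 to 8.36) and for Cd74 (5.87, others 5.99 to 6.01).

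A further 5 probe sets are annotated with H2-K1, H2-D1 and a locus identifier together, and so stood outside the comparisons above. In 4 of them every Meis1 deleted array was above every Hoxa9 and Meis1 array. Their differences were 0.42 (12.15 ± 0.03 in Meis1 deleted cells and 11.73 ± 0.06 in Hoxa9 and Meis1 cells), 0.43 (8.19 ± 0.05 in Meis1 deleted cells and 7.76 ± 0.05 in Hoxa9 and Meis1 cells), 0.46 (11.88 ± 0.03 in Meis1 deleted cells and 11.42 ± 0.04 in Hoxa9 and Meis1 cells) and 0.72 (10.79 ± 0.14 in Meis1 deleted cells and 10.06 ± 0.06 in Hoxa9 and Meis1 cells) on the log2 scale. The remaining probe set, near the floor, overlapped between groups with a difference of -0.14. None was tested, as a single gene cannot be named for them.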

How the results depend on the processing

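Of the 23 genes called, 14 kept their direction and call under each of the 21 alternatives in which they could be fitted. The class I rises numbered 10 to 14, the class I falls 0, the class II falls 4 to 6 and the class II rises 1. All counts of class I rises here include H2-T24 wherever it could be fitted. Leaving out 1 array gave 11 to 13 class I rises, 4 to 6 class II falls and 3750 to 4923 changed genes. Within the bioB sets alone, with fewer arrays, 2537 and 2979 genes changed, against 4474 with all arrays. The calls lost were those of Psme1 and Tapbpl (11 alternatives each), H2-DMb2 (6), Rfxap (2) and Cd80, Erap1, H2-D1, H2-DMa and Tapbp (1 each). Canx, Pdia3 and Ifi30 gained a call under 2 alternatives each and Rfxank under 1. Genes that were not called turned their sign in places, and the cause was not tested: Psmb9 read 0.18 with the mean of probe sets and 0.016 within set 1, Psme3 read 0.070 with the mean of probe sets and 0.043 within set 2, and H2-Eb1 read -0.017 within set 2. With 1 array left out H2-Eb1 ranged from -0.042 to 0.049 and Psme3 from -0.026 to 0.0058. An offset of 64 gave 0.49 for H2-T24, 0.41 for Cd86, 0.31 for Cd74 and 0.19 for Cd80. Whether the replicate numbers of the titles pair the samples could not be settled. Deviations of same-numbered arrays correlated at 0.03, 0.22, -0.13 and 0.29, and not every array correlated best with its own number. The correlations followed the bioB sets in part, which could hide a pairing. Meis1 deleted replicate 4 correlated at 0.34 and 0.29 with Hoxa9 and Meis1 replicates 3 and 4, the arrays of its set. With the replicate number as a block 4433 genes changed, with 12 class I rises, 5 class II falls and 30 changed probe sets of the 39 genes, against 31 without it. A fit with the bioB set as a block and without Meis1 deleted replicate 1, added after seeing the data, gave 5682 genes, 13 class I rises and 5 class II falls.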
